A study of Homo sapiens with 9 samples.

Results

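The 10 genes described here encode inducible transcription factors, namely the AP-1 subunits FOS, FOSB, FOSL1, FOSL2, JUN, JUNB and JUND, and beside them EGR1, ATF3 and MYC. They were chosen by name and matched by Ensembl identifier to the deposited count table of 60664 genes. All 10 were found, and all 10 were among the 17207 genes that passed the filter on low counts. Their mRNAs were measured in Huh-7 WT cells, a human hepatocellular carcinoma line, and in its derivatives 1-1 KO and 1-2 KO, in which CRISPR/Cas9 had removed VTRNA1-1 or VTRNA1-2, the genes of the small noncoding vault RNAs vtRNA1-1 and vtRNA1-2. All cells were untreated and grown to 80% confluency in complete medium with serum, with 3 libraries per line labelled as replicates. All 1-2 KO cells descended from 1 clone derived from the WT cells, whereas the 1-1 KO line and the WT cells had been received from another laboratory. The effect of a lost vtRNA therefore cannot be told apart from other differences between these lines.

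AP-1 factors bind DNA as dimers through a leucine zipper. A FOS protein needs a partner, usually a JUN protein, whereas JUN proteins also pair with each other and with ATF proteins. In resting cells the FOS, FOSB, EGR1 and ATF3 genes are known to be transcribed at a low rate. Serum, growth factors or stress act through ERK, JNK and p38 kinases to switch them on within minutes, and the short-lived mRNAs then decline. MYC pairs with MAX and drives genes of ribosome production and growth. In liver, JUN and MYC take part in regeneration and in hepatocellular carcinoma.

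Total counts were between 32384469 and 41782387 per library. No batch was given by the labels. The hepatocyte markers, among them ALB and AFP, were detected in all lines, with summed levels of 13500 to 14400 CPM (counts scaled to the library total) in WT, 28900 to 29800 in 1-1 KO and 20000 to 21800 in 1-2 KO, and KDR and TEK, markers of endothelial cells, were at 3 counts or fewer in every library. The other marker lists also differed between lines. The 6 fibroblast markers summed to 191 to 202 CPM in WT, 302 to 317 in 1-1 KO and 122 to 131 in 1-2 KO, the 5 leukocyte markers, with CD68 at 3 counts or fewer in every library, to 132 to 134, 102 to 108 and 20.5 to 21.8 CPM, and the 5 endothelial markers to 7.42 to 8.04, 6.43 to 7.22 and 0.831 to 1.10 CPM. Single markers did not all follow these sums. In 1-2 KO, 4 fibroblast markers were higher than in WT and 2 lower (edgeR, adjusted p under 0.05). LUM, the most abundant of them, fell from 157 to 62.1 CPM. Of 8 hepatocyte markers 4 were higher there and 2 lower, and of 3 tested leukocyte markers 1 and 2. Over all tested genes these shares were 28.2% and 26.2%. The part of the markers in the values of the factors was not tested. VTRNA1-1 and VTRNA1-2 held at most 1 count in any library, so these mRNA libraries did not check the knockouts. Of the libraries, 1-2 KO replicate 1 and WT replicate 3 stood apart from the other libraries of their line. In both, transcripts rich in G and C had higher counts. The 10% of tested genes with the highest GC content had a median log2 difference from the other libraries of the line of 0.188 in 1-2 KO replicate 1 and of 0.182 in WT replicate 3. JUND and JUNB were among these genes, with 69.9% and 64.9% GC, so values of both are given below with and without these libraries.

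The sequence before the transcription start was read for the factors from RefSeq on GRCh38.p14, since several of these promoters are known as places where growth factor and stress signals meet. Windows of 250 bases were found for 8 of the 10 genes, with none for FOSL1 and MYC and with 2 for ATF3. The 6 shown here are those of the immediate early genes FOS, FOSB and EGR1 and of the JUN family, which allows their layouts to be compared. Each is written 5′ to 3′ on the gene's strand and ends at the base before the annotated start. Capitals mark TATAAA (the TATA box), TGACGT on either strand (the start of the cAMP response element, CRE), the full CRE TGACGTCA, its variant TGACATCA, and the CArG box, the site of serum response factor. The windows were chr14:75278578-75278827 and chr19:45467746-45467995 on the plus strand, chr5:138465229-138465478 on the plus strand, chr1:58784048-58784297 and chr19:18281623-18281872 on the minus strand and chr19:12791236-12791485 on the plus strand.
FOS: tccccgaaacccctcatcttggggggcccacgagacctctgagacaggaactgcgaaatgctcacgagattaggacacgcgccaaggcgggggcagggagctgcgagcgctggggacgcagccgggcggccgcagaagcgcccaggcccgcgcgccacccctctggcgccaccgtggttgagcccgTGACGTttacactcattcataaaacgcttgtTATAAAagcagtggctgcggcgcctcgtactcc
FOSB: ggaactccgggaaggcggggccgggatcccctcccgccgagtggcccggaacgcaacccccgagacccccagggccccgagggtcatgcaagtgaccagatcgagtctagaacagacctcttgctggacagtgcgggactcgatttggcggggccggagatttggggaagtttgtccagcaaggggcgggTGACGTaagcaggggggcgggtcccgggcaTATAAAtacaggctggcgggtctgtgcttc
EGR1: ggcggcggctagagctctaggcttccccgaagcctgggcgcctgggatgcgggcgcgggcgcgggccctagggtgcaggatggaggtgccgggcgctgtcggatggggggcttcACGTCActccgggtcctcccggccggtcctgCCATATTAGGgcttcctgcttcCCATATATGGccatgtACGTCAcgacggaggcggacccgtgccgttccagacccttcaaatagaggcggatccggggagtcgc
JUN: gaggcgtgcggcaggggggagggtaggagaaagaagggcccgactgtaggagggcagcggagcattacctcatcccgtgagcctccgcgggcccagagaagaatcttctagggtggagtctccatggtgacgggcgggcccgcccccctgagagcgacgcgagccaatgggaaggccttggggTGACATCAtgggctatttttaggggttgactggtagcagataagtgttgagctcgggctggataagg
JUND: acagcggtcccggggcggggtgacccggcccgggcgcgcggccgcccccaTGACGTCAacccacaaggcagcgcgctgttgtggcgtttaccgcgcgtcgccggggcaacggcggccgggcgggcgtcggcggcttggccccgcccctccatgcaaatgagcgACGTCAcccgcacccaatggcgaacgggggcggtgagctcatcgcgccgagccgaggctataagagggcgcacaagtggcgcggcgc
JUNB: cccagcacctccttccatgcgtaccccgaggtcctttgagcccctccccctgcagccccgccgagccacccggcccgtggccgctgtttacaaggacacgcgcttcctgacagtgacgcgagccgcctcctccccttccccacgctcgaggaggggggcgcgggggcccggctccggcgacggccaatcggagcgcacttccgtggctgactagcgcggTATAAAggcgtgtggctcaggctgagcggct

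The FOS and FOSB windows were alike in layout. TGACGT lay from -64 to -59 before the start of FOS and from -60 to -55 before that of FOSB, and TATAAA from -33 to -28 and from -30 to -25. TGACGT was also found in the windows of FOSL2, from -66 to -61, and of EGR1, on the other strand from -67 to -62 and again from -136 to -131. Thus 4 windows held this motif within a few bases of the same distance from the start, and the JUN window held the variant TGACATCA from -67 to -60. For FOSL2 the distance is from the RefSeq start. Its window, chr2:28392608-28392857, lies inside the gene as annotated in GENCODE, which begins at 28392448. JUND had a full CRE further out, from -200 to -193, which contains TGACGT on both strands, and a shorter match from -87 to -82. EGR1 alone among the 9 windows held CArG boxes, from -105 to -96 and from -83 to -74. Bases more than 250 before the start were not searched, so FOS and the other genes may hold a CArG box further out. In JUNB the only match was TATAAA from -31 to -26, and ATF3 held TGACATCA from -123 to -116 in one window and TATAAA from -230 to -225 in the other. For ATF3 too the distances are from RefSeq starts, and its gene in GENCODE begins at 212565334. The first window, chr1:212565157-212565406, reaches into the gene, and the second, chr1:212614768-212615017, lies inside it. Whether transcription starts after either in these cells was not tested.

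Among 35116 windows of all genes, the TGACGT motif was present in 7.1%, the full CRE in 1.65%, TGACATCA in 2.37%, TATAAA in 10.7% and a CArG box in 1.16%. The AP-1 motif TGACTCA or TGAGTCA (4.2% of all windows), the E-box CACGTG to which MYC and MAX bind (6.34%) and the EGR motif GCGTGGGCG or GCGGGGGCG (5.37%) were in none of the 9 windows. Both strands were searched for every motif, and TGACGT and TGACATCA were added after the windows had been read. A match gives the letters present and not binding, which these libraries did not measure.

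Compared per length, in TPM (counts divided by exon length and scaled to the library total), mRNAs of the JUN family exceeded those of the FOS family in every library. The WT cells held 91.0 ± 21.2 TPM of JUN (SD, n = 3), 42.6 ± 10.4 of JUNB, 34.9 ± 3.87 of MYC and 31.0 ± 6.53 of JUND. Neither JUNB and MYC nor MYC and JUND were separated in this order, since their libraries overlapped. ATF3 followed at 12.0 ± 1.64 TPM, FOSL1 at 9.83 ± 0.98 and FOSL2 at 6.06 ± 0.646, and the WT libraries of ATF3 and FOSL1 overlapped as well. At the low end, FOS was at 1.34 ± 0.491 TPM, EGR1 at 1.10 ± 0.12 and FOSB at 0.935 ± 0.0485, with overlap between FOS and EGR1. FOS, EGR1 and FOSB, classical immediate early genes, were thus the least abundant of the 10 mRNAs in WT cells growing with serum.

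This order differed in the knockouts. In 1-1 KO, JUND was the second at 66.4 ± 4.02 TPM (SD, n = 3), above JUNB at 41.9 ± 2.35 and MYC at 35.6 ± 1.30, without overlap between these neighbours. FOSL2 at 7.36 ± 0.432 TPM stood above FOSL1 at 3.45 ± 0.319, and FOSB at 3.06 ± 0.0891 above EGR1 at 2.01 ± 0.114 and FOS at 1.90 ± 0.212. In 1-2 KO, JUN at 112 ± 21.2 TPM overlapped with JUNB at 84.9 ± 19.7, and JUNB with JUND at 56.3 ± 19.7. MYC was the fourth in both knockouts, with 34.1 ± 0.873 TPM in 1-2 KO, and ATF3 the fifth, with 16.5 ± 1.55 TPM there. FOSL2 at 5.74 ± 0.252 and FOSL1 at 5.58 ± 1.67 TPM were not separated in 1-2 KO. EGR1, at 1.40 ± 0.234 TPM, overlapped with both FOSB at 1.59 ± 0.0395 and FOS at 1.21 ± 0.0349, which did not overlap with each other.

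Within the FOS family the knockouts held a smaller share of FOSL1 and a larger share of FOSB than WT. FOSL1 made up 53.3%, 53.6% and 55.3% of the family's summed TPM in the WT libraries, 20.1%, 22.8% and 22.6% in 1-1 KO and 46.9%, 33.8% and 36.4% in 1-2 KO. No knockout library reached the WT range. FOSB made up 5.16% ± 0.17 (SD, n = 3) of the family in WT, 19.4% ± 0.409 in 1-1 KO and 11.3% ± 1.14 in 1-2 KO, without overlap between lines. Within the JUN family, JUND held 18.9% ± 0.376 in WT and 30.3% ± 1.87 in 1-1 KO, and JUNB held 25.8% ± 1.73 in WT, 19.1% ± 1.17 in 1-1 KO and 33.6% ± 0.491 in 1-2 KO. The JUN family made up 89.9% ± 1.33 of all AP-1 mRNA in WT, 93.3% ± 0.343 in 1-1 KO and 94.6% ± 0.582 in 1-2 KO. These shares are descriptions and no test was made on them.

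**Figure D1:**
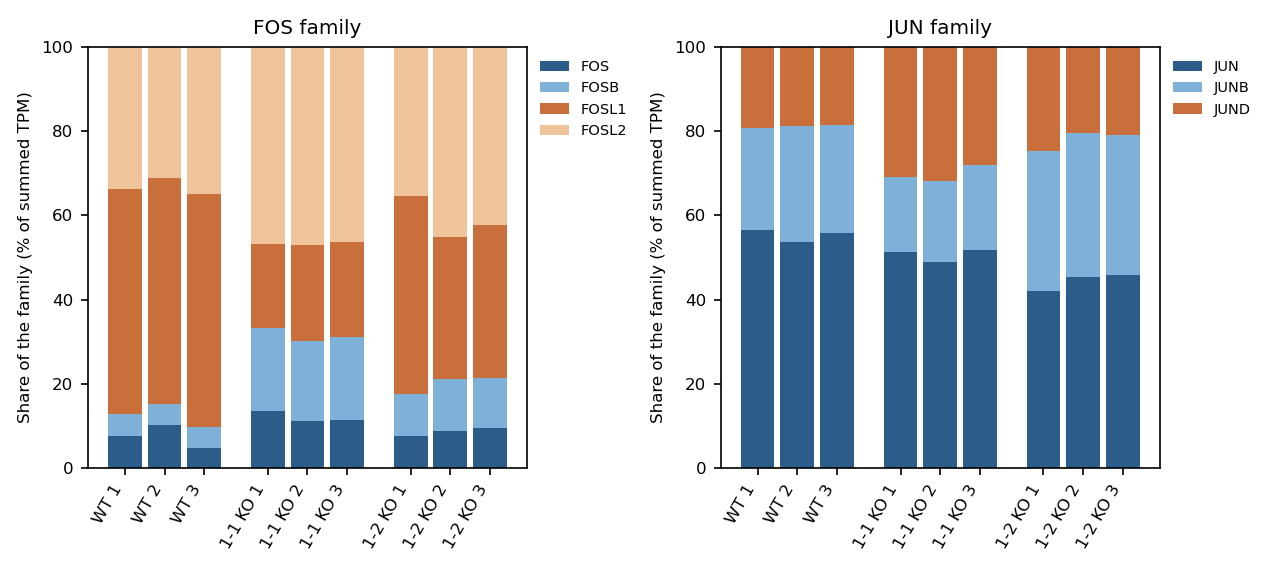
Composition of the FOS family (left) and the JUN family (right) in each of the 9 libraries, as stacked shares of the family's summed TPM in percent. The FOSL1 segment is between 53.3% and 55.3% in the WT libraries and between 20.1% and 22.8% in 1-1 KO, and the JUNB segment is between 33.3% and 34.2% in 1-2 KO.

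Compared to WT, 1-1 KO had 4 factors higher, FOSB, FOSL2, JUND and EGR1, and 1 lower, FOSL1, at an adjusted p under 0.05 in edgeR's quasi-likelihood test. Over all tested genes 32.5% were called higher and 30.9% lower, 63.4% together, so that 5 of 10 was not above the background. In 1-2 KO, FOSB, JUNB, JUND and ATF3 were higher than in WT and FOSL1 was lower, again 5 of 10, against 28.2% of all tested genes called higher, 26.2% lower and 54.4% together. The median log2 fold change over the 10 factors was 0.23 in 1-1 KO and 0.24 in 1-2 KO, and over all tested genes it was 0.0108 and 0.0194. Both comparisons used the same WT libraries. In these bulk libraries fewer expressing cells and less mRNA per cell cannot be told apart.

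**Figure D2:**
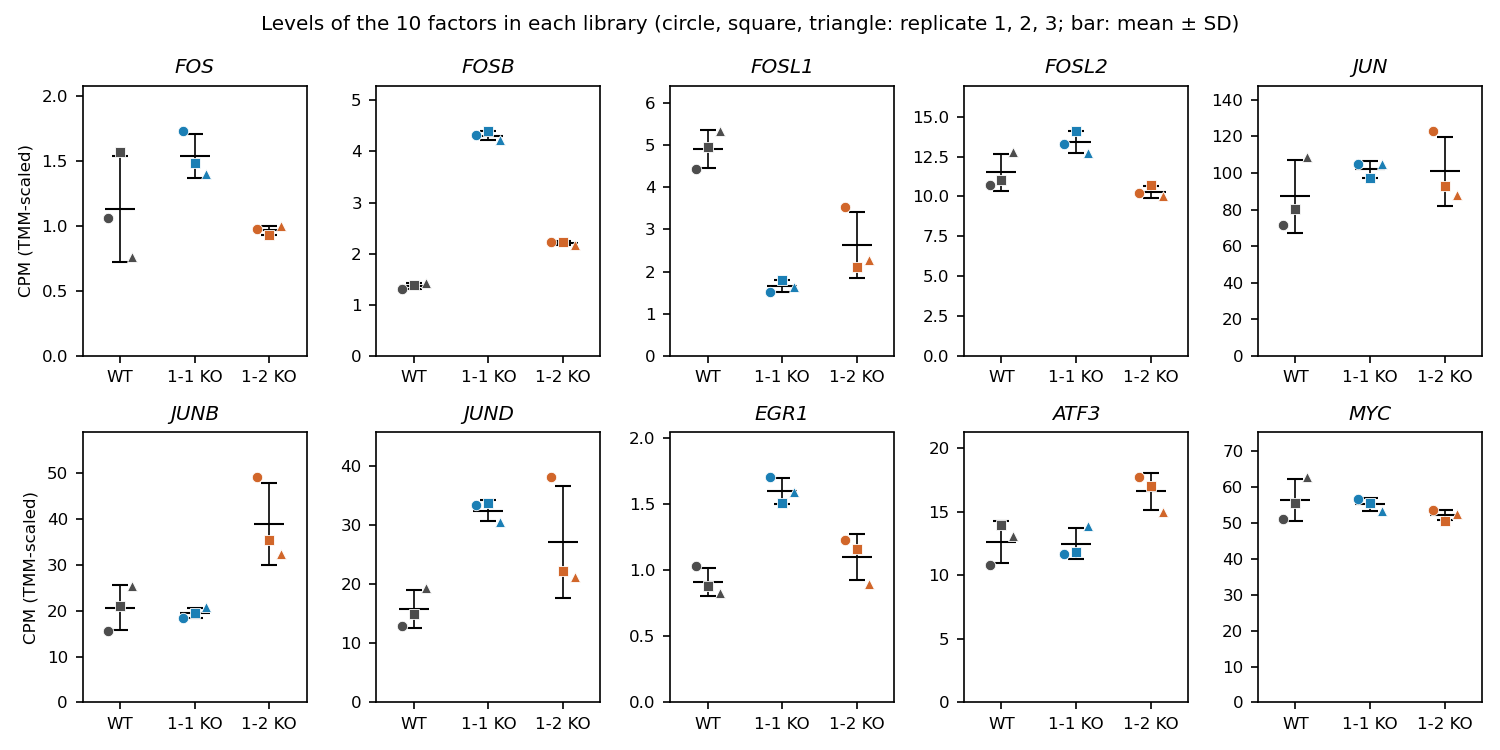
Levels of the 10 factors in CPM (vertical axes, starting at 0) in each library of 1-1 KO, 1-2 KO and WT, with circles, squares and triangles for replicates 1, 2 and 3 and bars for mean ± SD. FOSB separates the 3 lines without overlap, and for JUND 1-2 KO replicate 1 lies at 38.1 CPM, above the 22.2 and 21.2 CPM of the other libraries of its line.

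FOSB, which encodes the FOS protein known for its long-lived truncated form, had the largest rise of the 10 factors in 1-1 KO. Its gene (ENSG00000125740, chr19:45467995-45475179 on the plus strand of GRCh38) had 1.31, 1.39 and 1.43 CPM in the WT libraries, 4.32, 4.40 and 4.22 CPM in 1-1 KO and 2.23, 2.23 and 2.17 CPM in 1-2 KO. Every library of each knockout was above every WT library, and those of 1-1 KO were above those of 1-2 KO. The WT values rested on 52, 52 and 45 counts. The rise was 3.14-fold in 1-1 KO (log2 fold change 1.65 ± 0.11 SE, adjusted p = 1.2e-08) and 1.61-fold in 1-2 KO (0.69 ± 0.118, adjusted p = 0.000196). The gene body overlaps that of ERCC1 on the opposite strand, with 0 exonic bases in common.

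FOSL1, which encodes FRA1, the FOS protein tied to invasive growth and sustained ERK activity, was the only factor called lower in either knockout compared to WT. The gene (ENSG00000175592, chr11:65892049-65900573, minus strand) had 4.42, 4.96 and 5.33 CPM in WT, 1.51, 1.8 and 1.64 CPM in 1-1 KO, and 3.54, 2.11 and 2.27 CPM in 1-2 KO. All knockout libraries were below all WT libraries, and the highest of them was 1-2 KO replicate 1. The 1-1 KO values rested on 64, 74 and 67 counts. The log2 fold change was -1.57 ± 0.175 (adjusted p = 2.51e-06) in 1-1 KO, a 2.96-fold lower level, and -0.88 ± 0.165 (adjusted p = 0.00039) in 1-2 KO, which was -1.16 without 1-2 KO replicate 1.

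FOSL2, which encodes FRA2, had 10.7, 11.0 and 12.8 CPM in WT, 13.3, 14.1 and 12.7 in 1-1 KO and 10.2, 10.7 and 10.0 in 1-2 KO (ENSG00000075426, chr2:28392448-28417317, plus strand). The WT range overlapped with each knockout, through WT replicate 3 for 1-1 KO. The log2 fold change of 0.22 ± 0.078 in 1-1 KO passed the threshold (adjusted p = 0.0213), and the call was lost without WT replicate 1 (0.17, adjusted p = 0.1), WT replicate 2 (0.19, adjusted p = 0.0818) or 1-1 KO replicate 2 (0.19, adjusted p = 0.0897), and with DESeq2 on the compared lines (0.21, adjusted p = 0.0739). In 1-2 KO it was -0.15 (95% interval -0.32 to 0.02, adjusted p = 0.119).

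FOS (ENSG00000170345, chr14:75278826-75282230, plus strand), the partner of JUN in the classical AP-1 dimer, rested on few counts, 42, 59 and 24 in WT, 73, 61 and 57 in 1-1 KO and 41, 37 and 40 in 1-2 KO. In CPM these were 1.06, 1.57 and 0.761, then 1.73, 1.48 and 1.40, then 0.973, 0.929 and 0.998. The WT libraries spanned a wider range than either knockout and overlapped with both. The log2 fold change was 0.43 (95% interval -0.02 to 0.88, adjusted p = 0.0911) in 1-1 KO and -0.24 (-0.73 to 0.25, adjusted p = 0.391) in 1-2 KO. Without WT replicate 2, the 1-1 KO value was 0.74 with an adjusted p of 0.00637, so this library decided the call.

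JUN (ENSG00000177606, chr1:58776845-58784048, minus strand), the main transactivating subunit, had 71.7, 80.4 and 109 CPM in WT, 105, 97.1 and 105 CPM in 1-1 KO and 123, 93.1 and 87.8 CPM in 1-2 KO. The lines overlapped through WT replicate 3, the highest of WT. Neither knockout passed the threshold, with log2 fold changes of 0.24 (95% interval -0.05 to 0.52, adjusted p = 0.14) and 0.22 (-0.07 to 0.51, adjusted p = 0.181). Without WT replicate 3, JUN was called higher in both, by 0.43 (adjusted p = 0.00505) and 0.40 (adjusted p = 0.0101). Without 1-2 KO replicate 1, the 1-2 KO value was 0.06 (adjusted p = 0.701). Without WT replicate 1, the values were 0.11 in 1-1 KO (adjusted p = 0.493) and 0.09 in 1-2 KO (adjusted p = 0.578). Without the filter on low counts, at about the same fold changes (0.22 and 0.21), the adjusted p was 1.23e-05 and 5.92e-05.

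JUNB, which can oppose JUN on growth genes, was higher in 1-2 KO and not called in 1-1 KO. Its values (ENSG00000171223, chr19:12791486-12793315, plus strand) were 15.5, 20.9 and 25.3 CPM in WT, 18.4, 19.4 and 20.7 in 1-1 KO and 49, 35.4 and 32.3 in 1-2 KO. The 1-2 KO libraries were all above the other lines. The rise in 1-2 KO was 1.90-fold (log2 fold change 0.93 ± 0.158, adjusted p = 0.00018). It was 0.73 without 1-2 KO replicate 1, 1.08 without WT replicate 3 and 0.53 after a correction for GC content, and was called in each. That correction also takes out differences between whole lines that follow GC content. In 1-1 KO the log2 fold change was -0.07 (95% interval -0.42 to 0.28, adjusted p = 0.724) and 0.10 without WT replicate 3 (adjusted p = 0.614), and JUNB was called lower there with the GC correction (-0.38, adjusted p = 0.00458). JUNB shares 259 of its 1830 exonic bases with HOOK2 on the opposite strand, which held 113 to 286 counts.

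JUND, the AP-1 subunit that is kept at a steady level in resting cells, was higher in both knockouts. The gene (ENSG00000130522, chr19:18279694-18281622, minus strand) had 13, 15 and 19.3 CPM in WT, 33.4, 33.7 and 30.5 CPM in 1-1 KO and 38.1, 22.2 and 21.2 CPM in 1-2 KO. All knockout libraries were above all WT libraries, with WT replicate 3 and 1-2 KO replicate 1 the highest of their lines. The rise was 2.07-fold in 1-1 KO (log2 fold change 1.05 ± 0.187, adjusted p = 0.000204) and 1.73-fold in 1-2 KO (0.79 ± 0.188, adjusted p = 0.00252). In 1-2 KO it was 0.47 without 1-2 KO replicate 1, 0.94 without WT replicate 3 and 0.38 with the GC correction, and in 1-1 KO it was 1.22 without WT replicate 3 and 0.74 with that correction. JUND was called higher in all of these.

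EGR1 (ENSG00000120738, chr5:138465479-138469303, plus strand), a zinc finger factor that serum switches on together with FOS, had 41, 33 and 26 counts in WT, 72, 62 and 65 in 1-1 KO and 52, 46 and 36 in 1-2 KO. In CPM these were 1.03, 0.880 and 0.824, then 1.70, 1.51 and 1.59, then 1.23, 1.16 and 0.898. The 1-1 KO libraries were above all others, whereas 1-2 KO overlapped with WT. The log2 fold change was 0.80 ± 0.169 (1.74-fold, adjusted p = 0.000821) in 1-1 KO and 0.26 (95% interval -0.13 to 0.64, adjusted p = 0.246) in 1-2 KO.

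ATF3 (ENSG00000162772, chr1:212565334-212620777, plus strand), a stress-induced factor that represses as a dimer with itself, had 10.8, 14 and 13.1 CPM in WT, 11.7, 11.8 and 13.9 in 1-1 KO and 17.7, 17 and 15 in 1-2 KO. The 1-2 KO libraries were all above the others, and WT and 1-1 KO overlapped. The rise in 1-2 KO was 1.31-fold (log2 fold change 0.39 ± 0.1, adjusted p = 0.00417). In 1-1 KO the log2 fold change was -0.02 (95% interval -0.24 to 0.20, adjusted p = 0.891).

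MYC (ENSG00000136997, on chromosome 8) had 51.0, 55.6 and 62.7 CPM in WT, 56.8, 55.5 and 53.3 in 1-1 KO and 53.5, 50.7 and 52.6 in 1-2 KO. The lines overlapped. MYC shares 194 exonic bases with CASC11 on the opposite strand, which held 0 to 5 counts. The log2 fold change was -0.03 (95% interval -0.16 to 0.10, adjusted p = 0.693) in 1-1 KO and -0.11 (-0.24 to 0.02, adjusted p = 0.15) in 1-2 KO, the narrowest intervals of the 10 factors. Without WT replicate 1 the 1-2 KO value was -0.18 and passed the threshold (adjusted p = 0.0155). In 1-1 KO the 50 tested genes around MYC on its chromosome had a median log2 fold change of 0.38, and with this median as an offset MYC was called lower (-0.41, adjusted p = 5.08e-05). The same offset made JUNB lower in 1-1 KO (-0.53, adjusted p = 0.0121), where the neighbours' median was 0.463, and ATF3 higher (0.27, adjusted p = 0.0353), where it was -0.287. In 1-2 KO it made JUN higher (0.42, adjusted p = 0.0175), with a neighbours' median of -0.198, and MYC lower (-0.16, adjusted p = 0.0444).

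**Figure D3:**
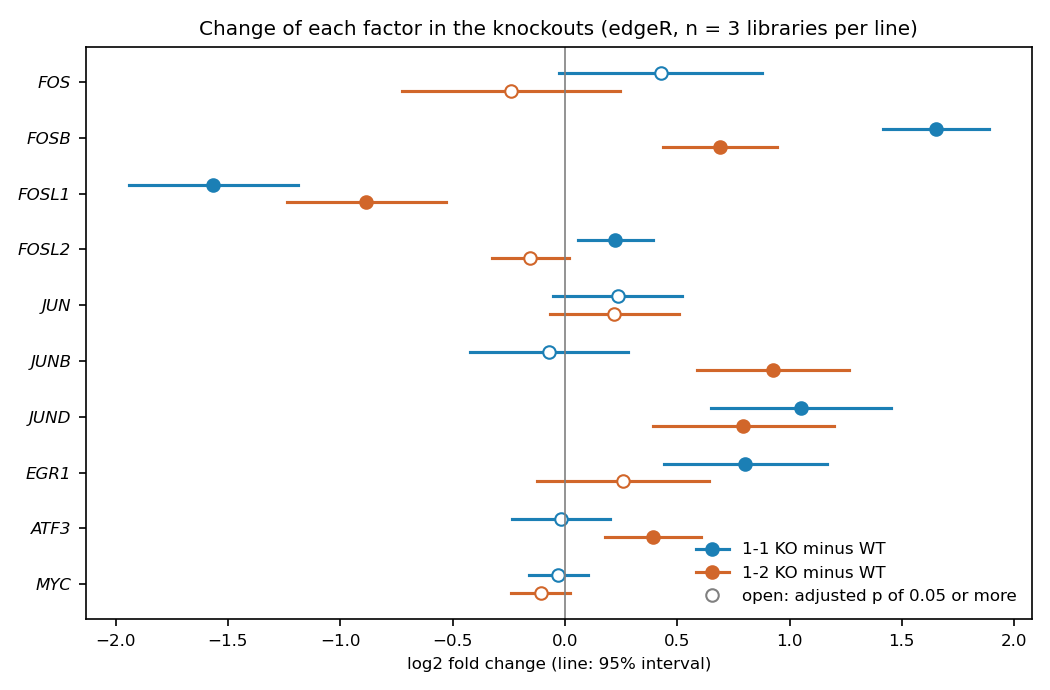
Log2 fold change of each factor (rows) in 1-1 KO (blue) and 1-2 KO (orange) compared to WT on the horizontal axis, with 95% intervals. Filled points passed an adjusted p under 0.05 in edgeR (n = 3 libraries per line). FOSB lies at 1.65 and 0.69, FOSL1 at -1.57 and -0.88, and the intervals of JUN and MYC include 0 in both.

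The direct comparison of 1-2 KO with 1-1 KO, for which the WT libraries entered only the estimate of the spread, called 7 of the 10 factors, 3 higher in 1-2 KO and 4 lower. Of all tested genes, 33.1% were called higher, 32.2% lower and 65.3% together. JUNB was 2.00-fold higher in 1-2 KO than in 1-1 KO (log2 fold change 1.00 ± 0.157, adjusted p = 6.16e-05), ATF3 1.33-fold (0.41 ± 0.099, adjusted p = 0.00221) and FOSL1 1.6-fold (0.68 ± 0.185, adjusted p = 0.00498). FOSB was 1.95-fold lower (-0.96 ± 0.1, adjusted p = 1.07e-06), FOS 1.59-fold (-0.67 ± 0.211, adjusted p = 0.0128), EGR1 1.46-fold (-0.54 ± 0.16, adjusted p = 0.00828) and FOSL2 1.30-fold (-0.38 ± 0.0779, adjusted p = 0.000656). For these 7 the libraries of the knockouts did not overlap. The share of all tested genes without such overlap is not given here, so this adds nothing to the calls.

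FOS, FOSB and EGR1, whose mRNAs were the least abundant in WT, were thus all lower in 1-2 KO than in 1-1 KO. The FOS call was lost without 1-1 KO replicate 1 (adjusted p = 0.0567), and the EGR1 call in DESeq2 (adjusted p = 0.0626). The FOSL1 difference was 0.41 without 1-2 KO replicate 1. With the neighbours' median as an offset, neither ATF3 (0.16, adjusted p = 0.182) nor FOS (-0.50, adjusted p = 0.0544) passed. JUN differed by -0.01 (95% interval -0.30 to 0.27, adjusted p = 0.929) and MYC by -0.08 (-0.21 to 0.05, adjusted p = 0.27). With only the libraries of the knockouts in the fit, MYC passed the threshold (-0.10, adjusted p = 0.0493). JUND differed by -0.26 (-0.64 to 0.13, adjusted p = 0.222), which was -0.58 (adjusted p = 0.000183) without 1-2 KO replicate 1 and -0.36 (adjusted p = 0.00826) with the GC correction.

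Several of the factors, the JUN genes among them, varied together between libraries of the same line. Over the 9 libraries, deviations of log2 CPM from the line mean had a Pearson r of 0.93 between JUN and JUNB, 0.907 between JUN and JUND and 0.89 between JUNB and JUND. Without 1-2 KO replicate 1 these were 0.886, 0.911 and 0.846. High values were also found for pairs beyond the JUN family, with an r of 0.855 between FOSB and FOSL2 and 0.821 between FOSB and MYC, and without that library 0.952 between JUND and MYC and 0.928 between JUND and FOSL2. FOSL1 and JUND had an r of 0.907, which was 0.637 without it. Other pairs had a negative r, with -0.599 between FOS and FOSL2, -0.471 between FOS and JUN and -0.435 between EGR1 and MYC. FOS and EGR1, though both immediate early genes, had an r of 0.129. They rested on 24 to 73 counts per library, few enough that counting noise can lower this r. All of these r are descriptions over libraries that share a line mean and a sequencing depth. The r between other tested genes is not given here, so these values cannot be called particular to the factors. WT replicate 3, the other library that stood apart, was kept in every r. JUN, JUNB and JUND lay at 0.528, 0.489 and 0.468 from the other WT libraries there, and at -0.388, -0.568 and -0.386 in WT replicate 1. How far the r of the JUN genes rest on these WT libraries was not tested.

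The libraries with the shift in GC content were also those in which the JUN genes stood highest relative to their line. In 1-2 KO replicate 1, JUND was 0.807 above the other libraries of its line on the log2 scale, FOSL1 0.68, JUNB 0.534 and JUN 0.44. In WT replicate 3, JUN was 0.528 above its line, JUNB 0.489 and JUND 0.468, whereas FOS was at -0.724. The effect of the GC correction on the calls of JUNB and JUND is given above.

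**Figure D4:**
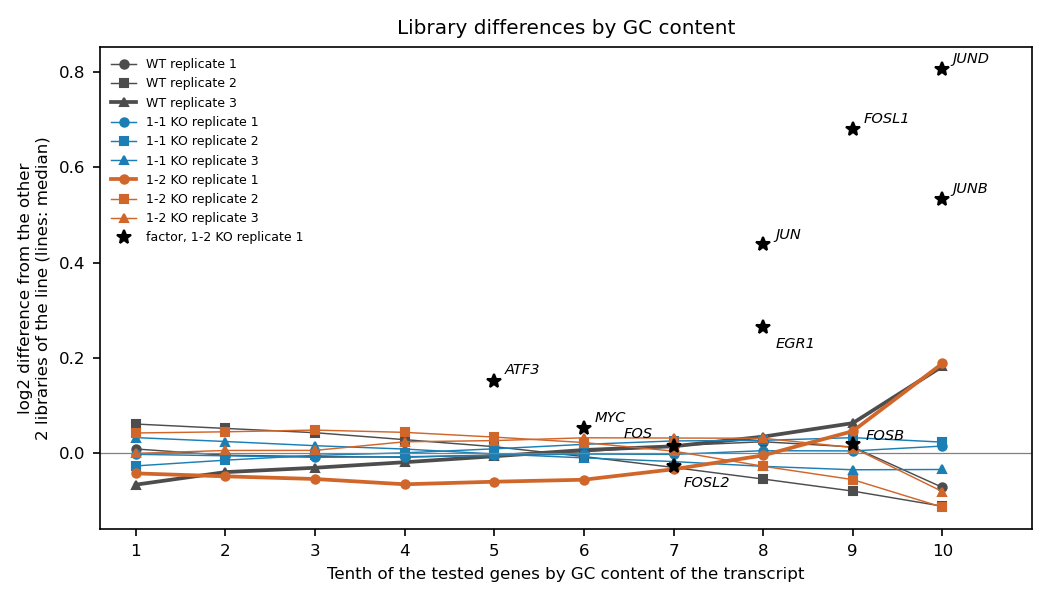
Median log2 difference of each library from the other libraries of its line (vertical axis) for the tested genes in 10 bins of transcript GC content (horizontal axis, 1 lowest), with stars for the 10 factors in 1-2 KO replicate 1. The lines of 1-2 KO replicate 1 and WT replicate 3 reach 0.188 and 0.182 in the highest bin, and JUND is at 0.807.

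Genes around the factors were then read from 8 lists. Of 19 other leucine zipper genes whose proteins can pair with FOS, JUN or ATF3, 8 were higher and 7 lower than WT in 1-1 KO (median log2 fold change 0.05). In 1-2 KO 11 were higher and 4 lower (0.16). Together this was 78.9% in each, against 63.4% of all tested genes in 1-1 KO and 54.4% in 1-2 KO. CREM, which encodes both activators and repressors at the CRE, fell in both knockouts, by 1.15 and 0.54 on the log2 scale (adjusted p = 2.78e-09 and 6.24e-06). JDP2, a JUN partner that represses AP-1, rose by 0.54 and 1.24 (adjusted p = 8.15e-05 and 2.09e-08). MAF moved in opposite directions, with 0.75 in 1-1 KO and -1.30 in 1-2 KO (adjusted p = 1.1e-05 and 2.12e-07), and ATF2, a JUN partner at the CRE, rose in 1-1 KO by 0.44 (adjusted p = 1.37e-07).

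Of 31 other immediate early genes, 27 were tested, and EGR4 and ARC were at 3 counts or fewer in every library. In 1-1 KO 13 were higher and 4 lower (median 0.10), 63.0% together against 63.4% of all tested genes. In 1-2 KO 10 were higher and 11 lower (median 0.02), 77.8% against 54.4%. SGK1, a kinase gene induced by serum, rose from 42.7 ± 0.993 CPM in WT (SD, n = 3) to 165 ± 3.57 in 1-1 KO and 128 ± 4.13 in 1-2 KO, by 3.86-fold and 3.01-fold (adjusted p = 5.58e-14 and 4.7e-13). MCL1, which encodes a short-lived antiapoptotic protein, fell by 0.68 and 0.34 on the log2 scale (adjusted p = 5.23e-10 and 8.97e-07). KLF6 fell by 0.61 and 0.68 (adjusted p = 5.76e-08 and 2.75e-08), but with the neighbours' median as an offset it was at 0.12 in both.

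The genes that act on these promoters, namely SRF, its ELK and MRTF cofactors and the MAP kinases with RSK and MSK, counted 4 of 17 higher and 9 lower in 1-1 KO (median -0.17), and 4 higher and 5 lower in 1-2 KO (0.03). Together this was 76.5% in 1-1 KO against 63.4% of all tested genes, and 52.9% in 1-2 KO against 54.4%. Of the JNK genes, MAPK8 fell by 0.17 and 0.60 on the log2 scale (adjusted p = 0.00124 and 1.25e-08), whereas MAPK9 was lower in 1-1 KO (-0.80, adjusted p = 2.59e-09) and higher in 1-2 KO (0.27, adjusted p = 0.000127). ELK3, which holds SRF sites silent until it is phosphorylated, fell by 0.49 and 0.67 (adjusted p = 2.21e-06 and 1.5e-07). These are mRNA levels, and kinase activity was not measured in these libraries.

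While MYC itself did not pass the threshold, its paralogs did. MYCN, at 33.3 ± 0.564 CPM in WT (SD, n = 3), rose to 50.3 ± 2.22 in 1-1 KO (1.51-fold, adjusted p = 1.65e-07) and 38.4 ± 2.22 in 1-2 KO (1.15-fold, adjusted p = 0.00377). MYCL, at 1.52 ± 0.13 CPM in WT, rose to 4.24 ± 0.522 in 1-1 KO (2.78-fold, adjusted p = 1.91e-07) and 2.29 ± 0.0708 in 1-2 KO (1.5-fold, adjusted p = 0.00239). MXD1, a MAX partner that opposes MYC, was higher in 1-1 KO (log2 fold change 0.52, adjusted p = 7.49e-06) and lower in 1-2 KO (-0.71, adjusted p = 7.86e-07), where MXI1, another, was lower as well (-0.56, adjusted p = 2.07e-05). Over 18 genes of the MYC network, 9 were higher and 3 lower in 1-1 KO (median 0.15), 66.7% together against 63.4% of all tested genes. In 1-2 KO 7 were higher and 4 lower (0.11), 61.1% against 54.4%.

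Of 25 genes known as MYC targets, 24 were tested, with CCND2 at 3 counts or fewer in every library. In 1-1 KO 4 were higher and 13 lower (median -0.17), 70.8% together against 63.4% of all tested genes. In 1-2 KO 3 were higher and 8 lower (-0.06), 45.8% against 54.4%. ODC1, the first enzyme of polyamine synthesis, and the nucleolar gene NPM1 fell in 1-1 KO by 0.85 and 0.80 on the log2 scale (adjusted p = 1.03e-10 and 2.12e-10), and in 1-2 KO they were at 0.07 and -0.02 (adjusted p = 0.106 and 0.649). LDHA fell in 1-2 KO by 0.39 (adjusted p = 8.85e-07), and GNL3, a nucleolar GTPase gene, in 1-1 KO by 0.40 and in 1-2 KO by 0.32 (adjusted p = 2.7e-07 and 3.27e-06).

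Of 22 genes known as AP-1 targets, 16 were tested, and MMP1, MMP3, MMP9 and MMP10 were at 3 counts or fewer in every library. Each knockout had 4 of the 16 higher and 9 lower, with a median log2 fold change of -0.53 in 1-1 KO and -0.31 in 1-2 KO. Together this was 81.2% in each, against 63.4% of all tested genes in 1-1 KO and 54.4% in 1-2 KO. TIMP1, an inhibitor of matrix metalloproteinases, fell from 28.8 ± 1.91 CPM in WT (SD, n = 3) to 1.02 ± 0.144 in 1-1 KO and 9.83 ± 0.878 in 1-2 KO (adjusted p = 2.92e-13 and 1.34e-09), 28.3-fold and 2.93-fold. SPP1, which encodes osteopontin, rose from 65.2 ± 3.24 CPM to 76.8 ± 1.28 and 219 ± 10.6 (adjusted p = 0.000372 and 1e-12).

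All 9 listed EGR1 targets and corepressors were tested. Of them 77.8% were called in 1-1 KO against 63.4% of all tested genes, and 66.7% in 1-2 KO against 54.4%. In 1-1 KO NAB1 (log2 fold change 0.83), PDGFA (0.90) and FN1 (0.33) were higher, and NAB2 (-0.39), PDGFB (-0.19), THBS1 (-0.23) and ICAM1 (-1.33) lower, with a list median of -0.20 (adjusted p between 1.3e-12 for ICAM1 and 0.0283 for PDGFB). In 1-2 KO NAB1 (0.16), NAB2 (0.36) and PDGFA (1.05) were higher and PDGFB (-0.18), FN1 (-0.35) and ICAM1 (-1.15) lower, with a median of -0.01 (adjusted p between 5.08e-12 for ICAM1 and 0.0464 for PDGFB). NAB2, the EGR1 corepressor that EGR1 itself induces, was lower in 1-1 KO, where EGR1 was higher, and NAB1, PDGFA and FN1 were higher. An effect of EGR1 on these genes was not tested. F3 and TGFB1 did not pass the threshold in either.

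The list around ATF3 moved on one side in 1-2 KO. Of 15 genes of the integrated stress response that are induced beside ATF3, 14 were higher in 1-2 KO and 0 lower, with a median log2 fold change of 0.55, and SESN2 did not pass. Over all tested genes 28.2% were called higher and 26.2% lower in 1-2 KO. In 1-1 KO 4 were higher and 4 lower, 53.3% together against 63.4% of all tested genes, with a median of -0.02. CHAC1, a glutathione-degrading enzyme, rose from 3.79 ± 0.463 CPM in WT (SD, n = 3) to 5.35 ± 0.247 in 1-1 KO and 18.5 ± 0.345 in 1-2 KO (adjusted p = 0.000289 and 3.9e-11). PHGDH, the gene of an enzyme of serine synthesis, rose in both, 1.91-fold and 1.65-fold (adjusted p = 2.12e-10 and 3.61e-09). TRIB3 was lower in 1-1 KO (log2 fold change -0.65, adjusted p = 6.73e-07) and higher in 1-2 KO (0.55, adjusted p = 3.52e-06). ATF4, ATF5, DDIT3 and CEBPB are also on the list of dimer partners, and PPP1R15A on that of immediate early genes.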

How the data were processed

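mRNA was measured in 9 libraries of Huh-7 cells, 3 each of 1-1 KO, 1-2 KO and WT. Per the labels, RNA was extracted with a column kit and made into stranded mRNA libraries. According to the study's methods and processing notes, the authors aligned the reads to hg38 (GRCh38) with STAR and assigned them to genes with featureCounts. The deposited values are raw read counts per gene, whole numbers without normalization. The strand setting of the counting, the treatment of reads with several matches and whether reads or fragments were counted are not given in the sources used here, so reads from overlapping genes on opposite strands may be mixed.

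Counts were tested in R 4.3.3 with edgeR 4.0.16 (quasi-likelihood test, 9 libraries in 1 fit with a term per line) with TMM normalization, on genes kept by filterByExpr (min.count 10, min.total.count 15). Benjamini-Hochberg adjustment covered the 17207 tested genes of each comparison, the threshold was 0.05, and every adjusted p comes from this test unless another tool is named. The 95% intervals are from the same fit. CPM are TMM-scaled, and TPM were computed from counts per kilobase of merged exons in GENCODE 44, in which 60463 of the 60664 identifiers were found. Deviations within lines used log2 CPM with a prior count of 2. Since nothing says that replicates were separate cultures beyond the study's own term biological replicates, p-values measure the spread between these libraries. No 2 libraries of a line agreed within counting noise (chi-square from 1.97 to 14.4 per degree of freedom).

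The factors, the 8 lists, the 4 marker lists and the rule for naming list genes were chosen with earlier results of these data known. Of each list all genes were named where at most 10 were tested, and otherwise the 2 called genes with the smallest adjusted p in each knockout. A few genes named by this rule are not reported here. Alternatives were DESeq2 1.42.0, other scaling, other filters, only the compared lines, the replicate number as a term, the median of 50 neighbouring genes as an offset, other thresholds and leaving out each library. A correction by the median of each library in 20 bins of GC content was added after the data were seen. It used deviations from each gene's mean over the 9 libraries, so GC-related differences between whole lines are taken out as well. The steps were tested on simulated data. Protein sequences were not analysed here. Analysis also used Python 3.11.15, pandas 2.3.3, numpy 2.4.6 and matplotlib 3.10.9.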

Additional observations from a re-analysis of the deposited data

Results flagged for a closer look

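For 7 of the 10 factors the levels in the knockout lines differed from each other, by edgeR's test of 1-2 KO against 1-1 KO. On the log2 scale and as 1-2 KO minus 1-1 KO, JUNB differed by 0.998, FOSL1 by 0.68 and ATF3 by 0.411, and FOSB by -0.962, FOS by -0.666, EGR1 by -0.544 and FOSL2 by -0.378. Of all tested genes 65.3% passed this test, so that 7 of 10 was near the background. For JUNB and ATF3, 1-2 KO was called higher than WT and 1-1 KO was not called, and for EGR1 and FOSL2 the reverse held. FOSB was higher and FOSL1 lower than WT in both knockouts, with the larger change in 1-1 KO, and FOS passed the threshold against WT in neither.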

How the results depend on the processing

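With DESeq2, other scaling, other filters, only the compared lines or a stricter adjusted p, the counts of called factors stayed within 1.5 times of those reported. Requiring a log2 fold change over 1 left 2 factors higher in 1-1 KO, where FOSL1 stayed lower, and 0 in either direction in 1-2 KO and between the knockouts. Over all genes it left 1617 higher and 683 lower in 1-1 KO, 1483 and 527 in 1-2 KO, and 1262 and 1172 between the knockouts. For the lists, in 1-1 KO and in 1-2 KO, it left 1 and 3 dimer partners, 3 and 3 immediate early genes, 1 and 1 upstream genes, 2 and 0 of the MYC network, 0 and 0 MYC targets, 7 and 6 AP-1 targets, 1 and 2 EGR1 targets, and 0 and 2 stress response genes. With the neighbours' median as an offset, 3 factors were lower in 1-1 KO and 2 in 1-2 KO, and 9 dimer partners were called in 1-1 KO. The GC correction gave 2 factors lower in 1-1 KO. An adjusted p under 0.01 left 5 MYC targets in 1-2 KO. The longest transcript as length gave a JUN family share of 92.4% in 1-1 KO.

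Leaving out 1 library gave 3 to 5 factors higher and 1 lower in 1-1 KO, 4 to 5 higher and 1 to 2 lower in 1-2 KO, and 7 to 13 MYC targets called in 1-2 KO, with the 7 without WT replicate 1.

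The values that follow changed sign against a value that had mostly not passed the threshold. Leaving out each library in turn gave FOS in 1-2 KO between -0.46 and 0.071, JUNB in 1-1 KO between -0.24 and 0.10, MYC in 1-1 KO between -0.10 and 0.054, ATF3 in 1-1 KO between -0.12 and 0.063, and JUN between the knockouts between -0.18 and 0.079. With the neighbours' offset, EGR1 in 1-2 KO was -0.12, JUN between the knockouts 0.12, ATF3 in 1-1 KO 0.27 and MYC between the knockouts 0.25 (adjusted p = 0.00237, called), and KLF6, called lower in both knockouts, was 0.12 in both. With library size alone, ATF3 and MYC in 1-1 KO were 0.033 and 0.021, and ATF3 was 0.0040 with at least 10 counts in every library and 0.034 with the GC correction. The cause was not tested.

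In their deviations from the line means, same-numbered libraries of different lines correlated between -0.1867 and 0.0474. Differently numbered ones correlated between -0.1419 and 0.2371, the highest for WT replicate 3 with 1-2 KO replicate 1, which both stood apart. Since such libraries weigh on these r, they cannot tell whether same-numbered samples were prepared together. With the replicate block the called factors were 4 higher and 1 lower in each knockout, and over all genes 5443 were higher and 5153 lower in 1-1 KO.

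FOS and EGR1 rested on 24 to 73 counts per library. FOSB in WT (52, 52 and 45 counts) and FOSL1 in 1-1 KO (64, 74 and 67) were similarly low. With 3 libraries per line, 1 library decided the calls of FOS, FOSL2 and JUN in 1-1 KO, of JUN and MYC in 1-2 KO, and of FOS and JUND between the knockouts.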
